A study of Homo sapiens with 96 samples.

Results

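The genes described here are ATF4, DDIT3 (which encodes CHOP), CEBPB, CHAC1, TRIB3, STC2, ASNS, SESN2, PPP1R15A and VLDLR, a set of effectors of the ATF4 and CHOP stress response. They are matched by symbol and were chosen by their changes against vehicle and over dose in these same libraries, and they make up 10 of the 60675 genes in the count table. Messenger RNA was measured by RNA sequencing in A549, a human lung adenocarcinoma cell line, after treatment with Paeoniae Radix, a peony root used in traditional medicine. In the first batch, cells received vehicle, a water extract at 20, 100 or 500 µg/mL, or an ethanol extract at the same doses. In the second batch, with vehicle libraries of its own, cells received vehicle or hederagenin, oleanolic acid, paeoniflorin, albiflorin, gallic acid, benzoic acid, catechin or paeonol, each at 0.4, 2 or 10 µM. Each of the 32 groups had 3 libraries, 96 in all, and every group was of the same cell line. How long the cells were exposed, and to which vehicle, is not given in the sources used here. Nothing in the labels ties the 3 replicates of a group to separate cultures, and p-values therefore reflect library-to-library spread that may be technical.

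In the integrated stress response, kinases that sense amino acid shortage, misfolded protein in the endoplasmic reticulum, haem shortage or double-stranded RNA phosphorylate the translation factor eIF2alpha. General translation then falls while the messenger RNA of ATF4 is translated more, and ATF4 protein, a basic leucine zipper transcription factor, switches on genes for amino acid supply, redox balance and, through CHOP, cell death. Much of the control of ATF4 lies in translation, which RNA sequencing does not measure, and no protein was measured here.

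ATF4 pairs with C/EBP family proteins on a composite site, TGATGNAA, and many promoters induced by cyclic AMP or by ATF family factors hold the cyclic AMP response element TGACGTCA. Promoter windows of 300 bases, from 250 bases before to 50 after a RefSeq transcript start (GRCh38.p14), were available for all 10 genes. Both motifs were searched on both strands. Genes listed as ATF4 targets can owe that listing to such sites, so the counts carry no test. These 30-base stretches show the matches, with the motif in capitals.
ASNS: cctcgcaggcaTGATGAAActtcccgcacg
CHAC1: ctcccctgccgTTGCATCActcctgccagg
PPP1R15A: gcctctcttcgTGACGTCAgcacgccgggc
The ASNS stretch lies at chr7:97872458-97872487 on the minus strand, and its motif begins 68 bases before the start. The CHAC1 stretch lies at chr15:40953251-40953280 on the plus strand, with the composite motif in its reverse-complement form 209 bases before the start. The PPP1R15A stretch lies at chr19:48872352-48872381 on the plus strand, with the cyclic AMP response element 58 bases before the start. The composite motif occurred in the windows of 2 of the 10 genes, and in 1217 of 27305 genes with a window (4.46%). The response element occurred in 1 of the 10 and in 614 of all genes (2.25%). The 10 genes had 16 windows and the 27305 genes 35116, so the number of windows per gene differed. A match describes these letters only, and some annotated transcripts start farther upstream, so that a window can overlap an exon.

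Library totals were 17.9 to 28.1 M counts for the extracts and 15.7 to 35.6 M for the ingredients. All A549 markers examined (KRT8, KRT18, AKR1B10, AKR1C1 and ALDH1A1) were detected in all libraries. In the second batch, 16 of 75 libraries had a mitochondrial share of counts under 5%, down to 0.822%, against 14.5 to 14.9% in its vehicle libraries. COL1A2, a fibroblast collagen, lay between 485 and 605 counts per M (CPM) in 4 libraries of catechin or gallic acid and at or below 0.842 CPM in the others. Whether these features bear on the results was not tested except where values without such libraries are given. In bulk samples a lower transcript level per cell and fewer cells that carry it cannot be told apart.

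Ethanol extract at 500 µg/mL and the triterpenes hederagenin and oleanolic acid at 10 µM were the treatments with high levels of most of these genes. Against vehicle, 9 of the 10 genes were called in ethanol extract at 500 µg/mL, all higher, by 0.42 to 3.45 on the log2 scale, and 8 of 10 in each triterpene at 10 µM, all higher, by 0.74 to 3.08. A gene counts as called where the adjusted p (edgeR quasi-likelihood test, over all genes tested) is under 0.05. Because the genes were listed with these contrasts known, the counts describe the choice and carry no test. The share of all tested genes called was 69.1% for ethanol extract at 500 µg/mL, 2.42% for hederagenin and 4.45% for oleanolic acid at 10 µM. The median log2 change of the 10 genes was 0.90, 1.39 and 1.70 respectively, where that of all tested genes was 0.00, 0.01 and 0.01.

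**Figure D1:**
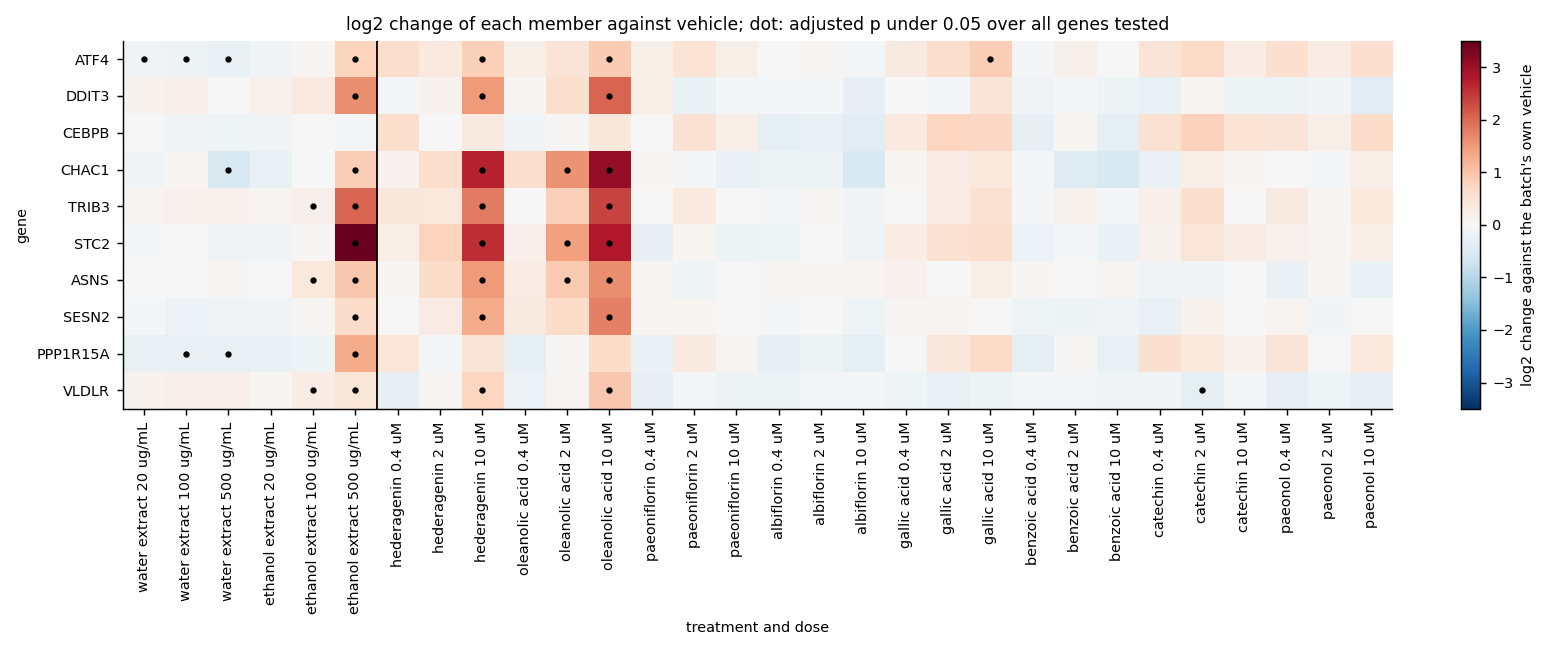
Log2 change of each of the 10 genes (rows) against the vehicle of its own batch, for every treatment and dose (columns; extracts left of the line, ingredients right of it), with a dot where the adjusted p was under 0.05. The strongest colours lie at ethanol extract 500 µg/mL, where STC2 reached 3.45, and at hederagenin and oleanolic acid 10 µM, where CHAC1 reached 2.70 and 3.08.

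ATF4, the central transcription factor of the response (chromosome 22, 39520559 to 39522686), stood at 229, 239 and 238 CPM in the 3 vehicle libraries of the extract batch and at 405, 394 and 409 CPM in ethanol extract at 500 µg/mL. The 3 treated libraries lay above all other libraries of that batch, and the log2 change against vehicle was 0.78 ± 0.04 (SE, n = 3 per group, as throughout). Lower levels were seen in water extract and in part of the ethanol extract libraries at 20 µg/mL (204, 233 and 222 CPM). In water extract ATF4 measured 213, 215 and 215 CPM at 20 µg/mL, 203, 211 and 214 CPM at 100 µg/mL and 199, 199 and 202 CPM at 500 µg/mL, below the vehicle libraries at each dose. In the ingredient batch, ATF4 measured 231, 223 and 235 CPM in vehicle, 369, 436 and 429 CPM in hederagenin at 10 µM and 416, 422 and 439 CPM in oleanolic acid at 10 µM. These were log2 changes of 0.84 ± 0.24 and 0.89 ± 0.24. The hederagenin call on ATF4 was lost when any 1 of its own or the vehicle libraries was left out, at adjusted p between 0.0691 and 0.177. The oleanolic acid call on ATF4 was lost without any 1 vehicle library and without its own replicate 2 or 3, at adjusted p between 0.0548 and 0.0884. High ATF4 was also seen outside the triterpenes, up to 587 CPM in 1 gallic acid library.

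DDIT3 (chromosome 12, 57516588 to 57520517, minus strand) encodes CHOP, a transcription factor that ATF4 induces and that promotes cell death under lasting stress. It measured 5.52, 6.62 and 4.64 CPM in vehicle of the extract batch and 16.9, 17.9 and 16.7 CPM in ethanol extract at 500 µg/mL, a log2 change of 1.62 ± 0.11. At 100 µg/mL of ethanol extract it measured 7.02, 7.19 and 6.87 CPM, all above vehicle, with a log2 change of 0.34 ± 0.12 that was not called. It was called with a replicate block (0.33, adjusted p = 0.0273), without a filter on low counts (adjusted p = 0.032) and without vehicle replicate 2 (0.46, adjusted p = 0.016, all by edgeR). The other 18 libraries of the batch spanned 4.64 to 7.19 CPM, with no overlap with the highest dose. Among the ingredients, DDIT3 measured 6.62, 7.72 and 6.34 CPM in vehicle, 19.8, 17.1 and 20.8 CPM in hederagenin at 10 µM and 31.7, 28.5 and 24.7 CPM in oleanolic acid at 10 µM. The log2 changes were 1.48 ± 0.21 and 2.04 ± 0.21. Among the 54 libraries of the 6 other ingredients, DDIT3 ranged from 2.70 to 12.4 CPM, below both triterpene groups. Exons of MARS, MBD6 and AC022506.1 overlap DDIT3, and whether strand entered the counting is unknown, so its level is uncertain to that extent.

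CEBPB, a C/EBP family factor that can pair with ATF4 and is itself listed as its target, did not follow the other genes in the extract batch (chromosome 20, 50190583 to 50192690). It measured 158, 172 and 159 CPM in vehicle and 168, 158 and 153 CPM in ethanol extract at 500 µg/mL, a log2 change of -0.03 ± 0.06. Treated and vehicle libraries overlapped. With the ingredients it measured 162, 153 and 146 CPM in vehicle, 156, 174 and 246 CPM in hederagenin at 10 µM and 170, 184 and 259 CPM in oleanolic acid at 10 µM. Neither triterpene change was called (0.32 ± 0.36 and 0.41 ± 0.36), and in each group the highest library was the 1 with a mitochondrial share under 5% (3.78% and 4.11%). CEBPB-AS1 overlaps CEBPB on the opposite strand, and the 2 may share reads.

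**Figure D2:**
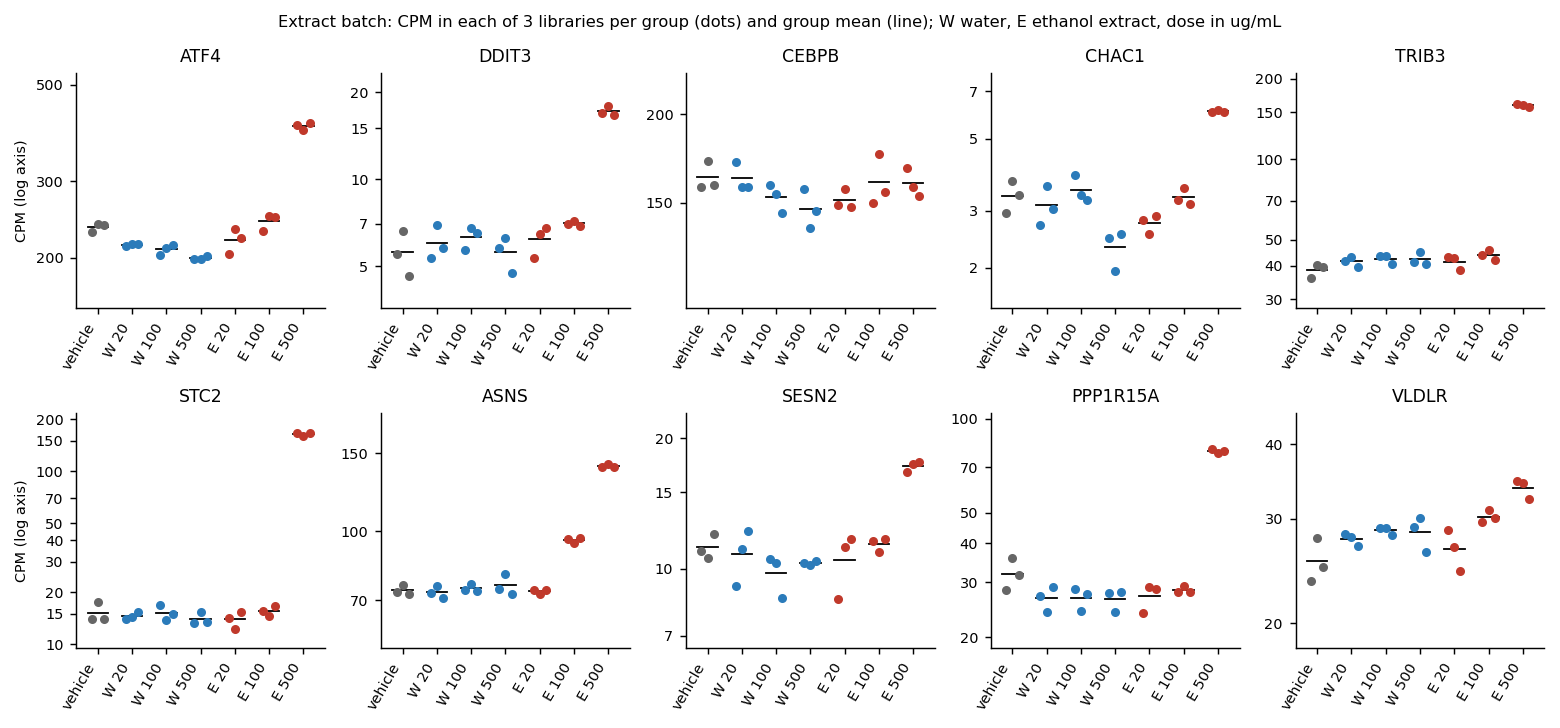
CPM (vertical log axis) of each gene in the extract batch, with 1 dot per library and a line at the mean of 3 libraries, for vehicle, water extract (W) and ethanol extract (E) by dose in µg/mL. In every panel but CEBPB the 3 dots at ethanol extract 500 µg/mL lie above the dots of all other groups, and ASNS at 100 µg/mL (94.3 to 96.7 CPM) also lies above all lower doses and vehicle.

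CHAC1, an enzyme that degrades glutathione (chromosome 15, 40953471 to 40956512), had low levels throughout and the largest triterpene change. Vehicle libraries of the ingredient batch measured 2.30, 2.43 and 2.34 CPM, hederagenin at 10 µM 13.5, 15.1 and 17.6 CPM, and oleanolic acid at 10 µM 22.4, 19.2 and 18.2 CPM. The log2 changes were 2.70 ± 0.30 and 3.08 ± 0.30. The highest level in the 54 libraries of the other ingredients was 5.25 CPM, well under either group. In the extract batch, CHAC1 measured 2.96, 3.71 and 3.35 CPM in vehicle and 6.04, 6.13 and 6.07 CPM in ethanol extract at 500 µg/mL, a log2 change of 0.87 ± 0.12. In water extract at 500 µg/mL it measured 2.47, 1.95 and 2.55 CPM, below all vehicle libraries, a log2 change of -0.52 ± 0.14. That call was lost without water extract replicate 2 (-0.41, adjusted p = 0.0798 by edgeR) and in a fit of the 2 groups alone (adjusted p = 0.0524).

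TRIB3 encodes a pseudokinase that binds AKT and ATF4 and restrains both (chromosome 20, 380760 to 397559). It measured 36.1, 40.4 and 39.6 CPM in vehicle of the extract batch and 161, 159 and 157 CPM in ethanol extract at 500 µg/mL, a log2 change of 2.04 ± 0.05. No other library of that batch exceeded 46 CPM. Vehicle libraries of the ingredient batch measured 57.7, 59.1 and 53.8 CPM, hederagenin at 10 µM 196, 178 and 234 CPM and oleanolic acid at 10 µM 273, 279 and 321 CPM. The log2 changes were 1.83 ± 0.27 and 2.36 ± 0.27, and the libraries of the 6 other ingredients reached at most 124 CPM.

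STC2, a secreted glycoprotein (chromosome 5, 173314723 to 173328414, minus strand), had the largest change of the 10 in ethanol extract. Vehicle libraries measured 13.9, 17.5 and 13.9 CPM, and those of ethanol extract at 500 µg/mL 167, 160 and 166 CPM, a log2 change of 3.45 ± 0.08. All 18 other libraries of the batch lay between 12.3 and 17.5 CPM, those of ethanol extract at 100 µg/mL (15.5, 14.6 and 16.6 CPM) among them. STC2 in the ingredient batch measured 12.6, 12.7 and 11.9 CPM in vehicle, 67.1, 76.6 and 80 CPM in hederagenin at 10 µM and 89.5, 83.5 and 86.7 CPM in oleanolic acid at 10 µM. The log2 changes were 2.59 ± 0.23 and 2.81 ± 0.24, with a maximum of 27.2 CPM among the other ingredients.

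ASNS makes asparagine from aspartate and glutamine (chromosome 7, 97851677 to 97928441, minus strand). It was called in ethanol extract at both 500 and 100 µg/mL. Its levels were 73.2, 75.6 and 72.3 CPM in vehicle, 96.1, 94.3 and 96.7 CPM at 100 µg/mL and 140, 142 and 140 CPM at 500 µg/mL. The 3 groups did not overlap, and the log2 changes were 0.38 ± 0.04 and 0.93 ± 0.04. In the ingredient batch, vehicle libraries measured 83.3, 82.9 and 84.8 CPM, hederagenin at 10 µM 245, 236 and 220 CPM and oleanolic acid at 10 µM 262, 271 and 246 CPM. The log2 changes were 1.48 ± 0.23 and 1.63 ± 0.23, and no library of the other ingredients exceeded 104 CPM. AC079781.5 overlaps ASNS on the same strand.

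SESN2, a sestrin that restrains the growth kinase complex mTORC1 when leucine is short (chromosome 1, 28259518 to 28282491), measured 11, 10.6 and 12 CPM in vehicle of the extract batch and 16.7, 17.5 and 17.6 CPM in ethanol extract at 500 µg/mL, a log2 change of 0.63 ± 0.10 without overlap. In the ingredient batch it measured 8.08, 8.57 and 9.98 CPM in vehicle, 22.2, 20.1 and 22.9 CPM in hederagenin at 10 µM and 33.6, 28.2 and 29.2 CPM in oleanolic acid at 10 µM. These were log2 changes of 1.29 ± 0.18 and 1.77 ± 0.18, and the other ingredients reached at most 13.8 CPM.

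PPP1R15A, or GADD34, directs a phosphatase to eIF2alpha and so ends the response (chromosome 19, 48872421 to 48876058). Ethanol extract at 500 µg/mL measured 80, 77.5 and 79 CPM against 28.3, 36 and 31.7 CPM in vehicle, a log2 change of 1.31 ± 0.08. Hederagenin at 10 µM measured 52.7, 65.4 and 67.2 CPM and oleanolic acid 62.7, 60.3 and 87 CPM against 48.6, 43.6 and 42.7 CPM in their vehicle. All 3 libraries of each triterpene lay above vehicle, but the log2 changes of 0.46 ± 0.30 and 0.64 ± 0.30 were not called. Both were called in fits of the 2 groups alone (0.46, adjusted p = 0.0172, and 0.63, adjusted p = 0.0122, by edgeR), and oleanolic acid with the mitochondrial share as a covariate (0.39, adjusted p = 0.0407). In water extract at 500 µg/mL PPP1R15A measured 27.8, 24.1 and 27.9 CPM, below vehicle, a log2 change of -0.26 ± 0.08. That call was lost without vehicle replicate 2 (-0.17, adjusted p = 0.173 by edgeR), vehicle replicate 3 or water extract replicate 2, and in a fit of the 2 groups alone (adjusted p = 0.0555). Such levels were not particular to water extract. Ethanol extract measured 24, 28.9 and 28.5 CPM at 20 µg/mL and 27.9, 29.1 and 28 CPM at 100 µg/mL.

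VLDLR, a receptor that takes up lipoproteins (chromosome 9, 2621787 to 2660056), had the smallest called change in ethanol extract at 500 µg/mL. It measured 23.6, 27.8 and 24.9 CPM in vehicle, 29.6, 31 and 30.1 CPM at 100 µg/mL and 34.7, 34.4 and 32.4 CPM at 500 µg/mL. The groups did not overlap, with log2 changes of 0.26 ± 0.06 and 0.42 ± 0.06. In the second batch it measured 22.7, 24.2 and 22.3 CPM in vehicle, 40.4, 34.4 and 40.9 CPM in hederagenin at 10 µM and 46.6, 43 and 43.1 CPM in oleanolic acid at 10 µM. The log2 changes were 0.74 ± 0.10 and 0.94 ± 0.10. No library of the other ingredients exceeded 24.7 CPM. VLDLR-AS1 overlaps VLDLR on the opposite strand.

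Over the doses of ethanol extract, most of the 10 genes stood near vehicle until the highest dose. At 20 µg/mL 0 of 10 were called, where 7.45% of all genes were. At 100 µg/mL 3 were called, all higher (ASNS, VLDLR and TRIB3, the last by 0.19 ± 0.05), against 17.5% of all genes. TRIB3 and VLDLR were no longer called without vehicle replicate 1, nor was TRIB3 without replicate 1 or 2 of ethanol extract at 100 µg/mL. Between 500 and 100 µg/mL 9 of 10 were called, all higher (65.8% of all genes), as between 500 and 20 µg/mL (67.5%), and between 100 and 20 µg/mL ASNS alone was, by 0.38 (1.79%). The VLDLR call between 500 and 100 µg/mL (0.16) was lost without replicate 1 or 2 of 500 µg/mL. It was also lost without replicate 1 or 3 of 100 µg/mL. Adjusted p in these fits was between 0.0546 and 0.0717 by edgeR. Against vehicle, the genes called in water extract were lower: ATF4, CHAC1 and PPP1R15A at 500 µg/mL (21.1%), ATF4 and PPP1R15A at 100 µg/mL (12.6%) and ATF4 at 20 µg/mL (9.51%). Without water extract replicate 2 the count at 500 µg/mL was 1, and a replicate block there added TRIB3 (0.14, adjusted p = 0.0371 by edgeR) and VLDLR (0.17, adjusted p = 0.0268), both higher. At 100 µg/mL the count was 0 without water extract replicate 1 and 1 without its replicate 2 or 3 or vehicle replicate 3. The ATF4 call at 20 µg/mL was lost without vehicle replicate 2 or 3 and without water extract replicate 1 or 2. Between the doses of water extract, CHAC1 alone was called, lower by -0.58 ± 0.14 at 500 than at 100 µg/mL (1.16%), with 0 of 10 between 500 and 20 µg/mL (2.05%) and between 100 and 20 µg/mL (0.0119%). The CHAC1 call held with a library left out only where that was replicate 3 of 500 µg/mL, and DESeq2 did not make it. The contrasts against vehicle share its 3 libraries, so their calls are not independent of each other. The mitochondrial share was 16.9 to 22.1% in vehicle. In water extract it was 14.2 to 16.9% at 20 µg/mL, 15.2 to 16.8% at 100 µg/mL and 14.5 to 16.8% at 500 µg/mL. Between the 2 extracts at 20 µg/mL 0% of all genes were called. Whether a feature of the vehicle libraries enters the calls against them was not tested.

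Oleanolic acid showed intermediate levels at 2 µM. CHAC1 measured 8.41, 6.02 and 6.76 CPM, STC2 37.1, 34.4 and 29.6 CPM and ASNS 159, 162 and 151 CPM, all above vehicle and below 10 µM. These 3 genes were called, with log2 changes of 1.58 ± 0.29, 1.44 ± 0.23 and 0.91 ± 0.22, where 0.322% of all genes were. The ASNS call was lost when any 1 library of the 2 groups was left out. TRIB3 (106, 94.8 and 103 CPM), SESN2 (16, 12.1 and 13.2 CPM), DDIT3 (11.7, 10.1 and 8.59 CPM) and ATF4 (352, 294 and 290 CPM) also lay above vehicle in each library without being called. Without the libraries under a 5% mitochondrial share, an alternative chosen after seeing the data, these 4 genes were called as well, for example TRIB3 at 0.82 ± 0.09. The 0.322% belongs to the fit of all libraries, so nothing is read from that count.

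Hederagenin at 2 µM had 0 of 10 genes called by edgeR, where 0.0546% of all genes were. ASNS at 130, 131 and 132 CPM, STC2 at 21.7, 21.2 and 20.4 CPM, CHAC1 at 3.35, 3.44 and 4.11 CPM, TRIB3 at 79.4, 68 and 73.4 CPM and ATF4 at 293, 279 and 295 CPM nevertheless lay above vehicle in each library. The log2 differences were 0.65, 0.77, 0.62, 0.37 and 0.33. A fit of these 2 groups alone called those 5 genes, and a fit without libraries under a 5% mitochondrial share called 4 of them (not CHAC1). The 0.0546% belongs to the main fit and not to these fits, so nothing is read from their counts. At 0.4 µM neither triterpene had a member called (3.05% of all genes for hederagenin and 0.18% for oleanolic acid). In oleanolic acid at 0.4 µM, ASNS (97.6 to 100 CPM), ATF4 (253 to 273), CHAC1 (3.03 to 4.45) and SESN2 (10.7 to 11.4) lay above the vehicle libraries. PPP1R15A (33.7 to 37.9 CPM) and VLDLR (19.7 to 20.3) lay below them, and the other genes overlapped them. Between 10 and 0.4 µM 7 genes were called in each triterpene, all higher, and they were the same ones: DDIT3, CHAC1, TRIB3, STC2, ASNS, SESN2 and VLDLR (1.05% of all genes for hederagenin, 2.47% for oleanolic acid). Hederagenin replicates 1 and 2 at 0.4 µM had mitochondrial shares of 3.44 and 2.29%. Without libraries under 5%, its ATF4 difference went from 0.23 to 0.60, with only replicate 3 left at 0.4 µM. The same fit called ATF4 (0.67, adjusted p = 1.58e-05 by edgeR) and PPP1R15A (0.78, adjusted p = 0.00133) in oleanolic acid. A fit of the 2 groups alone lost DDIT3, TRIB3, SESN2 and VLDLR in hederagenin.

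**Figure D3:**
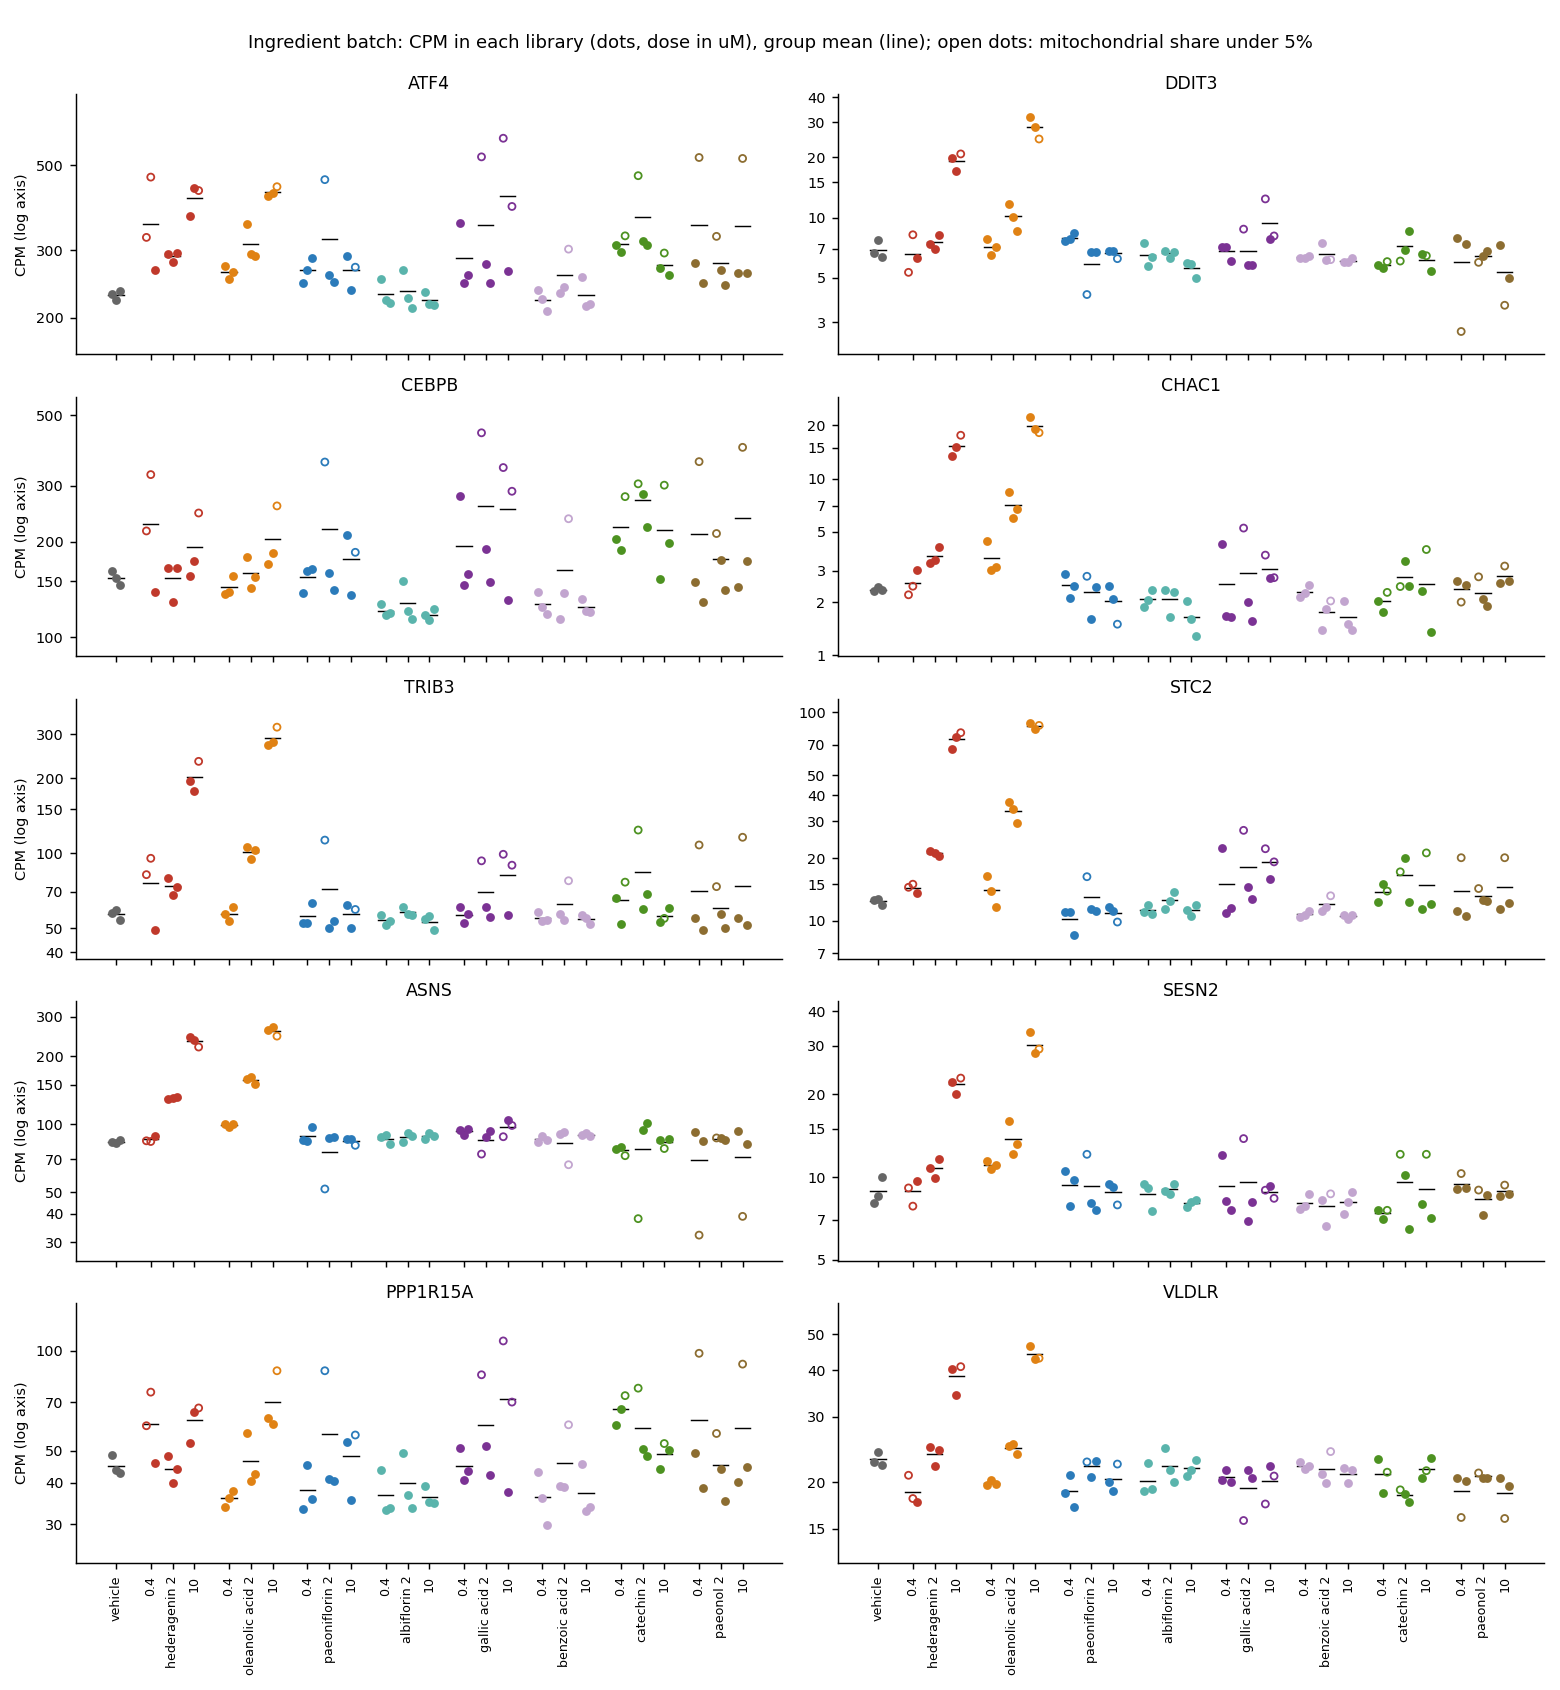
CPM (vertical log axis) of each gene in the ingredient batch, with 1 dot per library (open where the mitochondrial share was under 5%) and a line at the mean of 3 libraries, by ingredient and dose in µM. CHAC1, STC2 and ASNS climb over the doses of hederagenin and oleanolic acid with tight dots, while the high dots of ATF4, CEBPB and PPP1R15A in other ingredients are mostly open.

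Among the 6 other ingredients, calls on these genes against vehicle were few. Gallic acid at 10 µM had ATF4 called at 0.85 ± 0.24, with libraries at 587, 265 and 390 CPM, where 13.5% of all genes were called. Without its replicate 1 the change was 0.51 (adjusted p = 0.416 by edgeR), and without the libraries under a 5% mitochondrial share 0.21 (adjusted p = 0.584). The call was also lost without any 1 vehicle library. Catechin at 2 µM had VLDLR called lower by -0.32 ± 0.10, with libraries at 19.1, 18.6 and 17.7 CPM (8.06%). The other 16 combinations of these ingredients and doses had 0 of 10 called by edgeR. The share of all genes called, at 10, 2 and 0.4 µM, was 0.0382, 0.0382 and 0.0382% for albiflorin, 0.0273, 0.0218 and 0.0327% for benzoic acid, 0.191, 0.229 and 0.136% for paeoniflorin and 0.126, 0.0873 and 0.278% for paeonol. For gallic acid it was 0.611 and 0.0709% at the lower doses, and for catechin 0.0655% at 10 µM and 4.66% at 0.4 µM. Between 10 and 0.4 µM 0 of 10 were called for each of the 6, with 0.557% of all genes for gallic acid and 0% for the other 5.

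Several of the genes moved with the mitochondrial share in libraries of the second batch that did not receive a triterpene at 10 or 2 µM. In the 5 such libraries with a share under 2%, ATF4 ranged from 458 to 525 CPM, CEBPB from 304 to 440 CPM and PPP1R15A from 77.1 to 98.2 CPM. In the 49 libraries with a share of 5% or more the ranges were 209 to 354 CPM, 113 to 283 CPM and 29.8 to 66.6 CPM, with no overlap for these 3 genes. TRIB3 was likewise higher, at 93.3 to 124 CPM against 49.1 to 68.6 CPM, and ASNS lower, at 32.2 to 73.7 CPM against 77.6 to 104 CPM. CHAC1 measured 2.00 to 5.25 CPM in the 5 libraries and DDIT3 2.70 to 8.76 CPM, against 1.28 to 4.45 CPM and 4.98 to 8.58 CPM in the 49. In each triterpene group at 10 µM the libraries with a share of 5% or more were replicates 1 and 2. They lay above vehicle for each of the 10 genes but CEBPB, which at 156 CPM in hederagenin replicate 1 lay within the vehicle range. The genes were chosen with this contrast known, and how many of all genes lay so is not given, so nothing is read from it. The mitochondrial shares of these replicates were 9.89 and 9.78% in hederagenin and 13.4 and 12.3% in oleanolic acid, against 14.5 to 14.9% in vehicle. With that share as a covariate, and without the libraries under 5%, the genes called in each triterpene at 10 µM against vehicle stayed called. Oleanolic acid gained PPP1R15A with the covariate (0.39, adjusted p = 0.0407 by edgeR). Both fits were chosen after seeing the data. Beyond them, whether the share bears on the triterpene levels was not tested.

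The extracts were then compared with each other at matched dose, a contrast that holds no vehicle library. At 500 µg/mL the same ethanol libraries enter as in the vehicle contrast, so the differences are given as sizes with their 95% intervals and not as a test. STC2 differed by 3.55 (3.40 to 3.71) on the log2 scale, TRIB3 by 1.90 (1.80 to 2.01), DDIT3 by 1.61 (1.38 to 1.84) and PPP1R15A by 1.57 (1.41 to 1.73). CHAC1 differed by 1.39 (1.13 to 1.66), ATF4 by 1.01 (0.92 to 1.10), ASNS by 0.89 (0.82 to 0.97), SESN2 by 0.75 (0.54 to 0.96) and VLDLR by 0.24 (0.12 to 0.37), while the CEBPB interval included 0 (-0.01 to 0.24). The first 9 were called, where 66.1% of all genes were.

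At 100 µg/mL, where 1.77% of all genes were called, 2 of the 10 genes were higher in ethanol than in water extract. ASNS measured 96.1, 94.3 and 96.7 CPM against 73.8, 76.2 and 73.4 CPM, a difference of 0.36 (0.28 to 0.44, adjusted p = 4.17e-06). ATF4 measured 231, 250 and 248 CPM against 203, 211 and 214 CPM, a difference of 0.22 (0.13 to 0.30, adjusted p = 0.00546). In both, all 3 ethanol libraries lay above the water libraries. For ATF4 the ethanol libraries overlapped vehicle (229, 239 and 238 CPM) without a call against it, and the water libraries lay below vehicle. The libraries of both extracts also enter the vehicle and dose contrasts with which the genes were chosen. The adjusted p-values therefore describe the genes and carry no test. SESN2 differed by 0.23 (0.01 to 0.44, adjusted p = 0.377) and DDIT3 by 0.15 (-0.10 to 0.40), neither past the threshold. At 20 µg/mL 0 of 10 genes were called, and 0% of all genes, by edgeR as by DESeq2. An unadjusted p under 0.05 by edgeR was found for 0 of the 10 and for 735 of the 16854 genes tested.

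Related ingredients were compared directly in 3 pairs at 3 doses, 9 comparisons, with p-values adjusted over all genes within each and, in addition, over all genes of the 9 together. Under the latter 0 of the 10 genes passed in any comparison, the lowest adjusted p being 0.154 for STC2 in gallic against benzoic acid at 10 µM. The libraries of these pairs also enter the vehicle and dose contrasts with which the genes were chosen. P-values of the pairs therefore describe the genes and carry no test. Hederagenin carries a hydroxyl group that oleanolic acid lacks. Differences are given as oleanolic acid minus hederagenin. At 10 µM 0 of 10 passed the threshold by edgeR (2 genes, 0.0109%, were called in all). The unadjusted p was under 0.05 for DDIT3, at 0.56 (0.15 to 0.96), SESN2, at 0.48 (0.13 to 0.84), and TRIB3, at 0.53 (0.01 to 1.04). The share of all genes under that unadjusted cut is not given, so nothing is read from the number of such genes. For ATF4 the difference was 0.05 (-0.43 to 0.53), for CHAC1 0.38 (-0.17 to 0.92) and for ASNS 0.15 (-0.29 to 0.59). DESeq2 called 0 of 10 as well. Intervals of this width do not show that the 2 triterpenes act alike. Without the libraries under a 5% mitochondrial share, DDIT3 (0.70 ± 0.13) and TRIB3 (0.57 ± 0.10) passed, both at an adjusted p of 0.00418 by edgeR. The 0.0109% belongs to the fit of all libraries and not to that fit.

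At 2 µM, 0 of 10 were past the threshold between the triterpenes (0% of all genes), with differences again given as oleanolic acid minus hederagenin. CHAC1 differed by 0.96 (0.38 to 1.53, unadjusted p = 0.00151 by the quasi-likelihood test of edgeR) and STC2 by 0.67 (0.23 to 1.12, unadjusted p = 0.00383 by the same test). DDIT3, at 0.43 (0.01 to 0.85), was the other gene under an unadjusted p of 0.05. The 0% of all genes refers to adjusted p, so nothing is read from the number of such genes. Without the low mitochondrial libraries TRIB3 (0.45 ± 0.08) and ASNS (0.26 ± 0.05) passed, in a fit to which the 0% of all genes does not belong. At 0.4 µM 0 of 10 passed, and PPP1R15A was lower in oleanolic acid by -0.75 (-1.35 to -0.15), in a comparison where 2 of the 3 hederagenin libraries had a mitochondrial share under 5%.

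**Figure D4:**
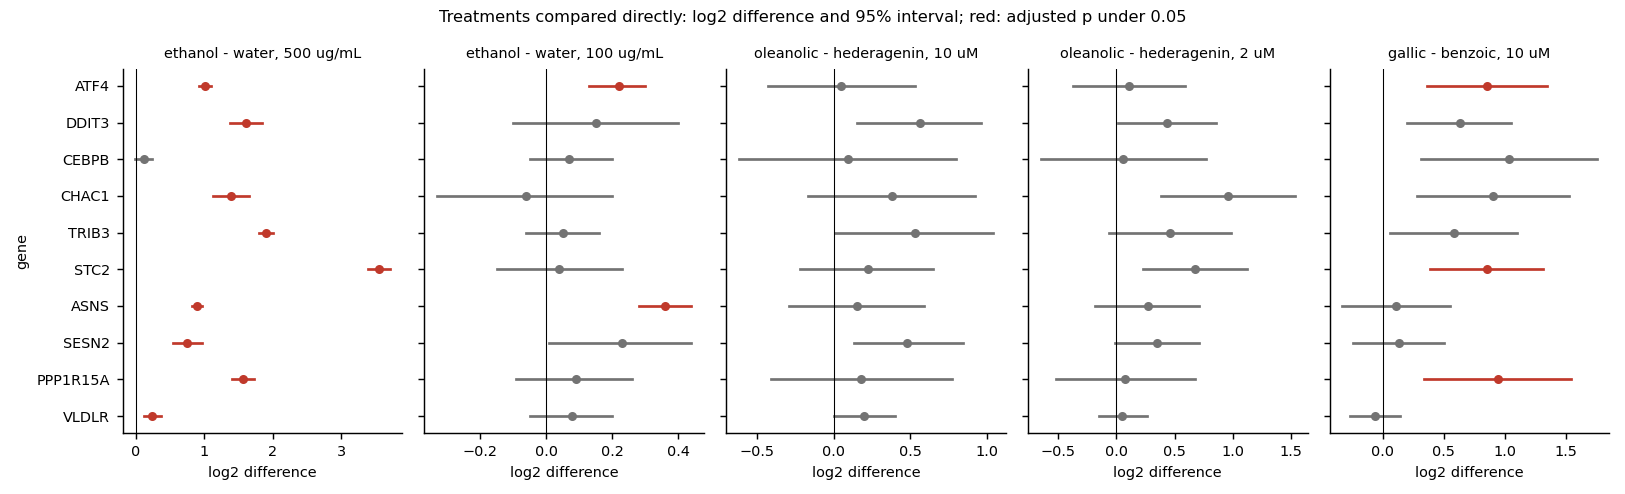
Log2 difference (horizontal axis, points) and 95% interval (lines) of each gene between treatments compared directly: ethanol minus water extract at 500 and 100 µg/mL, oleanolic acid minus hederagenin at 10 and 2 µM, and gallic minus benzoic acid at 10 µM, in red where the adjusted p within the comparison was under 0.05. STC2 shows the largest extract difference (3.55), and for the triterpenes no gene is red while most points lie to the right of 0.

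Gallic acid bears ring hydroxyl groups that benzoic acid lacks. At 10 µM, within this comparison (8.7% of all genes called), STC2 measured 22.2, 15.9 and 19.2 CPM in gallic against 10.7, 10.2 and 10.7 CPM in benzoic acid, a difference of 0.85 (0.39 to 1.31, adjusted p = 0.0205). ATF4 measured 587, 265 and 390 CPM against 255, 215 and 218 CPM, a difference of 0.85 (0.36 to 1.34, adjusted p = 0.0274). For both genes the gallic libraries were all higher. PPP1R15A measured 107, 37.4 and 70 CPM against 45.4, 32.9 and 33.7 CPM, with overlapping libraries and a difference of 0.94 (0.34 to 1.54, adjusted p = 0.042). CEBPB differed by 1.03 (0.31 to 1.75, adjusted p = 0.0572), CHAC1 by 0.90 (0.28 to 1.52, adjusted p = 0.0535), DDIT3 by 0.63 (0.20 to 1.05, adjusted p = 0.0515) and TRIB3 by 0.58 (0.06 to 1.10, adjusted p = 0.121), none past the threshold. ASNS (0.11), SESN2 (0.13) and VLDLR (-0.06) had intervals that included 0. Of the gallic acid libraries, replicates 1 and 3 had mitochondrial shares of 2.4% and 3.25%. With libraries under 5% left out, the differences were 0.59 for STC2 (adjusted p = 0.285), 0.21 for ATF4 (adjusted p = 0.65) and 0.01 for PPP1R15A (adjusted p = 1). The count of 3 became 7 without gallic acid replicate 2 and 0 without any other 1 of the 6 libraries. At 2 and 0.4 µM 0 of 10 genes passed (0% of all genes at each), by edgeR as by DESeq2. The unadjusted p was under 0.05 for STC2 and CHAC1 at 2 µM and for STC2 at 0.4 µM, a cut to which the 0% of all genes does not refer.

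Paeoniflorin and albiflorin are isomeric monoterpene glycosides. At 10, 2 and 0.4 µM 0 of 10 genes passed between them (0% of all genes at each dose), by edgeR as by DESeq2. At 10 µM the differences ranged from -0.09 (-0.30 to 0.11) for VLDLR to 0.59 (-0.13 to 1.31) for CEBPB, and at 2 µM CEBPB, at 0.77 (0.05 to 1.49), was the 1 gene with an unadjusted p under 0.05. CEBPB measured 356, 159 and 141 CPM in paeoniflorin at 2 µM against 150, 121 and 114 CPM in albiflorin, and the library at 356 CPM had a mitochondrial share of 1.39%.

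Other genes of the pathway, from lists that were also drawn up with earlier results known, were set beside the 10. For ethanol extract at 500 µg/mL the list counts stand against 69.1% of all genes called, in both directions together, and nothing is read from them. Of 8 genes for eIF2alpha kinases and their control, 3 were higher and 3 lower in ethanol extract at 500 µg/mL. EIF2AK3, or PERK, the kinase that senses misfolded protein in the endoplasmic reticulum, measured 21, 23.2 and 22.7 CPM in vehicle and 50.8, 51.3 and 52.3 CPM in the extract (1.21 ± 0.05). EIF2S1, which encodes eIF2alpha itself, measured 118, 132 and 118 CPM in vehicle and 77.7, 79.2 and 79.7 CPM in the extract (-0.63 ± 0.04). In the triterpenes at 10 µM EIF2AK3 measured 21.3, 21 and 20.3 CPM in hederagenin and 23.3, 20.6 and 19.4 CPM in oleanolic acid, overlapping vehicle at 22.5, 20.9 and 22 CPM. In that list 0 of 8 genes were called in hederagenin, and DELE1 alone in oleanolic acid (0.26 ± 0.08).

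Of 11 other tested ATF4 and CHOP targets, 8 were higher and 2 lower in ethanol extract at 500 µg/mL (median 0.87), 5 higher in hederagenin and 7 higher in oleanolic acid at 10 µM. The shares of all genes called were 69.1, 2.42 and 4.45%. GDF15, a stress hormone, measured 11.3, 12.2 and 11.9 CPM in vehicle and 37.9, 34.6 and 33.3 CPM in the extract (1.58 ± 0.06). In hederagenin it measured 19.2, 22 and 24.4 CPM, overlapping the 24.2, 20.1 and 20.3 CPM of vehicle. ATF5, a transcription factor related to ATF4, went in different directions. It measured 51, 54.7 and 50.6 CPM in vehicle of the ingredient batch and 102, 117 and 88.7 CPM in hederagenin (0.98 ± 0.18). In the extract batch its libraries went from 48.8, 54.3 and 56.7 CPM in vehicle to 40.7, 36 and 41.6 CPM, without overlap (-0.43 ± 0.09).

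Of 12 cytosolic tRNA synthetases, which load amino acids onto tRNA, 11 were higher in each triterpene at 10 µM (median 0.70 and 0.73), with AARS1 at 466, 504 and 473 CPM in hederagenin and 500, 493 and 535 CPM in oleanolic acid against 275, 273 and 274 CPM. In ethanol extract at 500 µg/mL 5 were higher and 7 lower (median -0.14), with IARS1 at -0.84 ± 0.03 and CARS1 at 0.56 ± 0.05. Of all genes, 2.42 and 4.45% were called in hederagenin and oleanolic acid at 10 µM and 69.1% in the extract. Of 6 enzymes of serine and one-carbon metabolism, 5 were higher in hederagenin and 6 in oleanolic acid, and in the extract 3 were higher and 3 lower. PHGDH, the first enzyme of serine synthesis, measured 165, 173 and 204 CPM in hederagenin against 67, 64.7 and 62.8 CPM in vehicle (1.48 ± 0.20). MTHFD2, a mitochondrial folate enzyme, was higher in both settings, by 1.15 ± 0.06 in the extract and 1 ± 0.14 in hederagenin. Of 8 amino acid transporters, 4 were higher and 1 lower in the extract and 3 higher in each triterpene. SLC1A4, which carries neutral amino acids, was called in all 3 treatments (1.24 ± 0.06, 0.88 ± 0.10 and 1.14 ± 0.10). The extract and the triterpenes belong to different batches, and no test compared them.

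Chaperones and folding factors of the endoplasmic reticulum belong to the other arm of the stress response to misfolded protein. In ethanol extract at 500 µg/mL 4 of 13 were higher and 8 lower (median -0.27), where 69.1% of all genes were called. HERPUD1, a factor in the disposal of misfolded protein, measured 91.5, 87.9 and 88.3 CPM against 37.3, 33.5 and 35.8 CPM in vehicle (1.33 ± 0.04). HSP90B1, a chaperone, measured 523, 515 and 521 CPM against 986, 1070 and 949 CPM (-0.95 ± 0.04). In the triterpenes at 10 µM 0 of 13 were called in hederagenin and HERPUD1 alone in oleanolic acid (0.61 ± 0.17). Between ethanol and water extract at 100 µg/mL 8 of 13 were higher, where 1.77% of all genes were called. PDIA4 measured 376, 382 and 384 CPM in ethanol against 322, 309 and 303 CPM in water extract, a difference of 0.29 ± 0.03 (adjusted p = 1.27e-05). In gallic against benzoic acid at 10 µM 10 of 13 were higher, where 8.7% of all genes were called, with MANF at 109, 53.7 and 72.9 CPM against 39.3, 36.7 and 34.1 CPM (1.10 ± 0.18, adjusted p = 0.000204), in the same gallic acid libraries of low mitochondrial share.

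**Figure D5:**
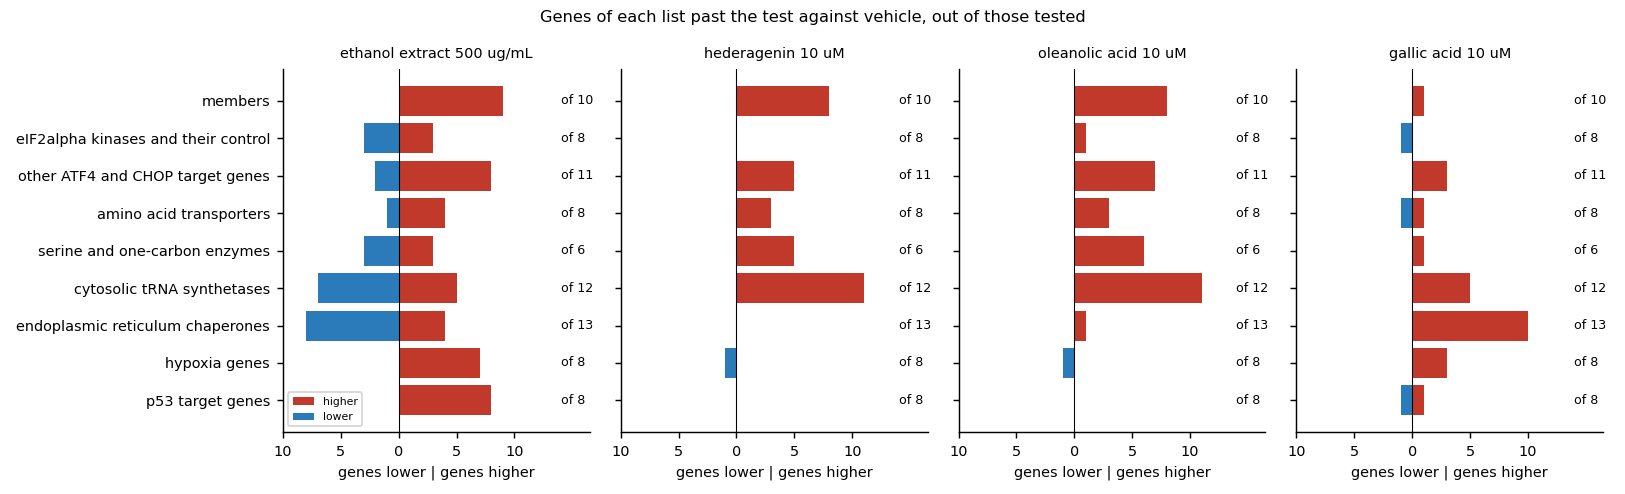
Number of genes of each list called higher (red, right) or lower (blue, left) against vehicle in 4 treatments, with the number tested at the right of each bar. The tRNA synthetases, with 11 of 12 higher in hederagenin and in oleanolic acid, are split 5 to 7 in ethanol extract 500 µg/mL, where 69.1% of all genes were called.

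In ethanol extract at 500 µg/mL, where 69.1% of all genes were called, 7 of 8 hypoxia genes were higher (median 1.81). NDRG1 measured 681, 667 and 699 CPM against 67.4, 68.1 and 69.5 CPM (3.32 ± 0.05). All 8 p53 targets were higher as well (median 0.90), with BBC3 at 1.97 ± 0.08. In both triterpenes at 10 µM 0 of 8 genes of each list were higher, and EGLN3 was lower (-0.64 ± 0.13 in hederagenin and -0.81 ± 0.13 in oleanolic acid). The 5 A549 markers were lower in ethanol extract at 500 µg/mL (median -0.60), with ALDH1A1 at -1.12 ± 0.04. Their part in the changes of the 10 genes was not tested. Fibroblast marker sums were at 958 to 1230 CPM in the 4 libraries with COL1A2, none of them a vehicle, extract or triterpene library, and leukocyte and endothelial sums stayed at or below 7.33 and 0.646 CPM.

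The genes whose group means over the 7 groups of the extract batch were most like those of DDIT3, by Pearson's r of log2(CPM + 0.5) among 11037 genes, were M6PR (0.9992), TMEM127, C1orf43, RRAGB and LAMB3. For STC2 they were AXL (0.9998), BNIP3, SLCO4A1, EPHB4 and RNF24. With 1 group, ethanol extract at 500 µg/mL, apart from the other 6, these values restate that shared high group. RRAGB, a GTPase in amino acid sensing, ranged from 5.28 to 6.11 CPM in vehicle and from 13.7 to 14.9 CPM in that group, and BNIP3, a hypoxia-induced mitophagy receptor, from 39 to 47.3 and from 230 to 251 CPM.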

How the data were processed

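The values are expected counts per gene, deposited by the authors, from libraries of the MGIEasy RNA Directional kit. FastQC, Trim Galore, STAR and RSEM 1.3.3 with GRCh38 (hg38) were used, per the submitters' processing notes. Their settings and the use of strand do not appear in the labels. Of the values, 89.2% were whole, and the rest were rounded. RSEM shares reads among genes they match, so overlapping genes are uncertain.

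CPM are counts per 1 M of library size adjusted by trimmed mean of M-values (TMM) factors. The batches were fitted separately, all groups of a batch together, in edgeR 4.0.16 (R 4.3.3) with filterByExpr and the quasi-likelihood test, on 16854 and 18324 genes. P-values were adjusted by Benjamini-Hochberg over all genes tested in a comparison, with a threshold of 0.05, and the test was tested on simulated data. Common biological coefficients of variation were 0.0444 for the extract batch and 0.212 for the ingredient batch. Replicate pairs with identical values numbered 0 of 96. DESeq2 1.42.0, other normalization and filters, a replicate block, fits of 2 groups and leaving out each library were tried as alternatives.

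The 10 genes and the lists were chosen with earlier results of these data known. The rule allowed all 10 to be named in each comparison. From each other list up to 3 genes with the smallest p could be named, and for DDIT3 and STC2 the 5 most alike genes. EIF2AK3, EIF2S1, GDF15, ATF5, PHGDH and MTHFD2 are followed across treatments, in part beyond that rule, after their values were seen. Promoter sequences come from RefSeq.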

Additional observations from a re-analysis of the deposited data

How the results depend on the processing

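The common biological coefficient of variation was 0.212 in the ingredient batch and 0.0444 in the extract batch. The counts of genes called stayed at 9 of 10 in ethanol extract at 500 µg/mL against vehicle, and at 2 in ethanol against water extract at 100 µg/mL, whichever library was left out. Under alternatives that leave out no single replicate, 87 of the 110 counts for the 16 main comparisons were within 1.5 times the count reported. For the other comparisons 263 such counts were, 20 were higher, 7 lower and 3 turned direction (catechin at 2 µM). In the exceptions the cause was not tested. For water extract at 500 µg/mL against vehicle (3) the replicate block gave 5 (the 2 added were higher) and a fit of the 2 groups alone 1. For gallic acid at 10 µM against vehicle (1), the replicate block gave 2, the 2 groups alone 0, DESeq2 2, leaving out the COL1A2 libraries 2 and the mitochondrial share as a covariate 3. For gallic against benzoic acid at 10 µM (3), the 2 groups alone gave 0, DESeq2 6, leaving out the COL1A2 libraries 6 and leaving out those under a 5% mitochondrial share 0. Hederagenin at 2 µM against vehicle (0) gave 5 with the 2 groups alone, 1 without the COL1A2 libraries, 4 without the low mitochondrial libraries and 2 with the covariate, and oleanolic acid at 2 µM (3) gave 7 with the 2 groups alone, 7 without the low mitochondrial libraries and 5 with the covariate. Hederagenin at 10 against 0.4 µM (7) gave 3 with the 2 groups alone. Oleanolic acid against hederagenin (0) gave 2 without the low mitochondrial libraries and 1 with the covariate, both at 10 and at 2 µM. For catechin at 2 µM against vehicle the call of 1 lower gene turned into 1 higher gene with the 2 groups alone, 3 called without the COL1A2 libraries (2 of them higher) and 4 without the low mitochondrial libraries (3 higher). The alternatives on mitochondrial share and COL1A2 were chosen after seeing the data. The share of all genes called in each alternative is not given beside these counts, so they show only how the counts depend on the fit. Leaving out 1 library at a time gave ranges of 1 to 4 for ethanol extract at 100 µg/mL and for water extract at 500 µg/mL against vehicle, 0 to 6 for gallic acid against vehicle and 0 to 7 against benzoic acid, 7 to 7 for hederagenin at 10 µM (8, ATF4 lost), 7 to 8 for oleanolic acid at 10 µM (8, ATF4 lost in 5 of 6 fits) and 2 to 2 for oleanolic acid at 2 µM (3, ASNS lost). For gallic acid against vehicle the 6 came without replicate 2, and without replicate 1 or any vehicle library the count was 0. In oleanolic acid against hederagenin at 10 µM, the log2 difference ranged over such fits from -0.02 to 0.09 for ATF4, -0.12 to 0.31 for CEBPB and -0.01 to 0.28 for PPP1R15A; CEBPB was also negative, at -0.04, without hederagenin replicate 1. Same-numbered replicates deviated together with correlations of -0.0538 to 0.148 in the first batch and -0.741 to 0.837 in the second, so the numbers were not taken to pair the libraries; 16 of 21 and 40 of 75 libraries correlated best with their own number, and the replicate block also moved the count from 2 to 4 for water extract at 100 µg/mL (2 of the 4 higher), from 1 to 2 at 20 µg/mL and from 1 to 2 for ethanol extract at 100 against 20 µg/mL, and no other count by more than 1.5 times.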
